A study of Homo sapiens with 6 samples.

Results

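Of the 40 genes described here, 32 code for subunits of the human Mediator complex, with alternative paralogs counted separately. The other 8 code for factors that the viral activator VP16 is known to contact. The members were taken by name from the deposited tables of a study of U2OS 2-6-3 cells, in which 26852 genes had a symbol on a primary chromosome and 21633 had reads. All 40 had reads and a test in each comparison. U2OS 2-6-3 is an established human osteosarcoma line that carries a chromosomal array of tet operators with a reporter gene. RNA was sequenced from 6 libraries of these cells, all illuminated overnight with white light. The 2 untransfected libraries received no plasmid and no transfection reagent, the 2 mock libraries received TetR-RFP and YFP, and the 2 sample libraries were given mCherry-MCP, CIBN-TetR and PHR-YFP-VP16. Transfection was transient, and the labels do not give the share of cells that took up plasmid. They also do not give which stretch of VP16 was fused. The mock and sample plasmids differ in more than VP16, and no group was kept dark, so dependence on light was not tested.

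Mediator carries signals from DNA-bound activators to RNA polymerase II at promoters. Its head and middle modules touch the polymerase, the tail and the subunits at the junction of head and tail receive many activators, MED14 is the backbone that joins the modules, and a separable kinase module (CDK8 or CDK19 with cyclin C, MED12 and MED13 or MED13L) regulates the complex. VP16 of herpes simplex virus reaches viral promoters through its core region, which binds the host proteins HCF-1 (gene HCFC1) and Oct-1 (gene POU2F1). Its activation domain contacts Mediator, with MED25 and MED17 among the described subunits, the acetyltransferases p300 and CBP, and the general factors TBP, TFIIB (gene GTF2B) and PC4 (gene SUB1). The comparisons therefore show the RNA levels of the machinery an activator of this kind works through, not its binding.

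The promoter sequences of 4 members are printed because these genes moved in both transfected groups: CDK19, which fell, its paralog CDK8, which rose, and MED26 and MED10, the largest rises of the middle module. Each is the stretch of 250 bases before the RefSeq start (build GRCh38.p14), written 5′ to 3′ in the direction of the gene. Capitals mark every match to the motifs searched. CDK19 lies at chr6:110815856-110816105 on the minus strand, for the first of 3 listed starts, CDK8 at chr13:26253879-26254128 on the plus strand, MED26 at chr19:16628205-16628454 and MED10 at chr5:6378548-6378797, both on the minus strand. The deposited entry used for CDK19 starts further downstream, at position 110815316.
CDK19: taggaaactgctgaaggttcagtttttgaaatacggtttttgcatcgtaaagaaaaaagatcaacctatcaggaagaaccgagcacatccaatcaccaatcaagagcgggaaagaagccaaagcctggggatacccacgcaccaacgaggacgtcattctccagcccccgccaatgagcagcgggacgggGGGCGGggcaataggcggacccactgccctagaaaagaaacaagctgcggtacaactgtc
CDK8: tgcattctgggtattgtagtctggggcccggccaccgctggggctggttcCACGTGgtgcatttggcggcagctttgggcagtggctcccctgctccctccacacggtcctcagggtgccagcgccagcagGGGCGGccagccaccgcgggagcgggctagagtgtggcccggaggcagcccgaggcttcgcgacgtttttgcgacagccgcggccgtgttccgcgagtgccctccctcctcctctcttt
MED26: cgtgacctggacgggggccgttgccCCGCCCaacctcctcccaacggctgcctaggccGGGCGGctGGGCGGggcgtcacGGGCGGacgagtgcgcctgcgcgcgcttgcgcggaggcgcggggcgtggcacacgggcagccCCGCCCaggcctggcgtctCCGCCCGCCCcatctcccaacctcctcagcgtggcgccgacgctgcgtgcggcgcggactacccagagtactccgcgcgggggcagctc
MED10: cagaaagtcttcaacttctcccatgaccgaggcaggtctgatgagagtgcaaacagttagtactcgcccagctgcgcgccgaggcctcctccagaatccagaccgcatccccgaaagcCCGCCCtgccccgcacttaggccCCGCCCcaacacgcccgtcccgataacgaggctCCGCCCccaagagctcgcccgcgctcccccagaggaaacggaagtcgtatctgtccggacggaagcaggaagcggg
RefSeq gave a promoter for 30 of the 40 members. The GC box (GGGCGG or CCGCCC) was found in 19 of these 30 (63.3%), against 42.3% of 27305 promoters of the same length. It stands in all 4 sequences above. The E-box (CACGTG on both strands) was found in 4 of 30 (13.3%), in CDK8, GTF2B, HCFC2 and MED13L, against 6.49% of all promoters. The ETS motif (CCGGAAG or CTTCCGG) was found in 5 of 30 (16.7%), among them MED15 and MED17, against 8.82%. The TATA motif (TATAAA or TTTATA) was found in 3 of 30 (10.0%) against 11.1%, the AP-1 motif (TGAGTCA or TGACTCA) in MED9 alone (3.33%) against 4.16%, and the cAMP response element (TGACGTCA) in MED18 alone (3.33%) against 1.77%. In the sequences above no match overlaps one of another motif, and adjoining GC boxes share bases in MED26. These matches describe letters in the window and no binding was measured.

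Read counts summed over all deposited entries ran from 44594507 to 54177551 per library, except for 1 sample library with 9579278. Isoform entries can share reads, so these sums can count a read more than once and are not the sequencing depth. The tables do not show which library is which labelled replicate, and here a names the deeper of each pair and b the shallower. No label states separate cultures for the replicates, and p-values cover only the spread between these libraries, which may be technical. Levels are read counts divided by a library size factor (normalized read counts). In bulk RNA, fewer cells expressing a gene and less RNA per cell cannot be told apart. Of 8 osteosarcoma line markers 6 averaged at least 50 normalized counts and TWIST1 had no reads. Of the 7 tested, 3 were called higher and 3 lower in mock cells, with ALPL at 3.62 and RUNX2 at -2.49 (log2) in the authors' deposited table. The summed level, most of it VIM and SPARC, ran from 80309 to 83929 in untransfected, 71244 to 77395 in mock and 70580.0 to 89981 in sample libraries. The 8 epithelial markers summed to 2345 to 2506, 314 to 376 and 335 to 382 in the same order, with GRHL2 at 0 throughout. The 8 blood cell markers summed to 78.9 to 107, 1066 to 1328 and 950.1 to 1074, most of it LCP1, with CD3E at 0. Among them HBB measured 1.96 and 4.29 in the untransfected, 11.4 and 3.72 in the mock and 103.6 and 62.0 in the sample pair. HBB was called higher in sample than in mock cells (log2 fold change 0.38, adjusted p = 0.0191, DESeq2, the authors' deposited table). The part of these shifts in the results below was not tested. The reporter sequence ECFP-SKL measured 28.7 and 26.5 in the untransfected pair, 64 and 59.5 in the mock pair and 24874 and 23831 in the sample pair.

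Mock transfection addressed what the control plasmids and reagent do to these cells. Among the 40 genes 16 rose, 3 fell and 21 did not pass, at an adjusted p under 0.05 (DESeq2, the authors' deposited table). Of all 17093 genes tested, 27.5% were called higher and 23.3% lower. The members that rose were spread over every Mediator module except the scaffold, the general factors and HCFC1, whereas the 3 that fell were CDK19, MED12 and POU2F1. The largest changes were MED26, MED15 and MED10 upward and CDK19 downward. Both mock libraries lay above both untransfected ones for 19 of 40 members and below them for 8. Of 14895 genes with a mean of at least 10, 42.3% lay above and 40.2% below, so such separation was common among all genes. The median log2 fold change of the 40 was 0.14 against -0.0038 for all genes tested, and 23 of 40 values lay above 0, in the authors' deposited table. A refit of the recovered counts with limma-voom called 15 higher and 3 lower, where 29.7% of all genes were called higher and 29.2% lower. With upper-quartile library sizes that refit called 12 higher and 7 lower, against 25.2% and 33.6% of all genes, with MED11, MED21, MED29 and MED13L added to those that fell, so the balance between directions depends on the scaling.

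Sample transfection addressed what the light-controlled plasmids do, against the same untransfected libraries. Here 8 members rose, 1 fell and 31 did not pass in the authors' deposited table. Of all 15567 genes tested, 20.2% were called higher and 17.1% lower. MED1, MED10, MED26, MED15, MED27, CDK8, TBP and SUB1 rose and CDK19 fell. Both sample libraries lay above both untransfected ones for 20 of 40 members and below them for 7. Of 14895 genes with a mean of at least 10, 37.6% lay above and 36.8% below. The median log2 fold change was 0.17 against -0.0027 for all genes, and 28 of 40 values lay above 0, in the authors' deposited table. The limma-voom refit called 13 higher and 1 lower, against 25.6% and 25.0% of all genes. The 5 called in addition were MED6, MED8, MED24, CCNC and HCFC1. With upper-quartile sizes it called 8 higher and 3 lower (CDK19, HCFC2 and POU2F1), against 22.0% and 28.6% of all genes. Both comparisons use the same 2 untransfected libraries, so their values are given side by side and not as support for each other.

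**Figure D1:**
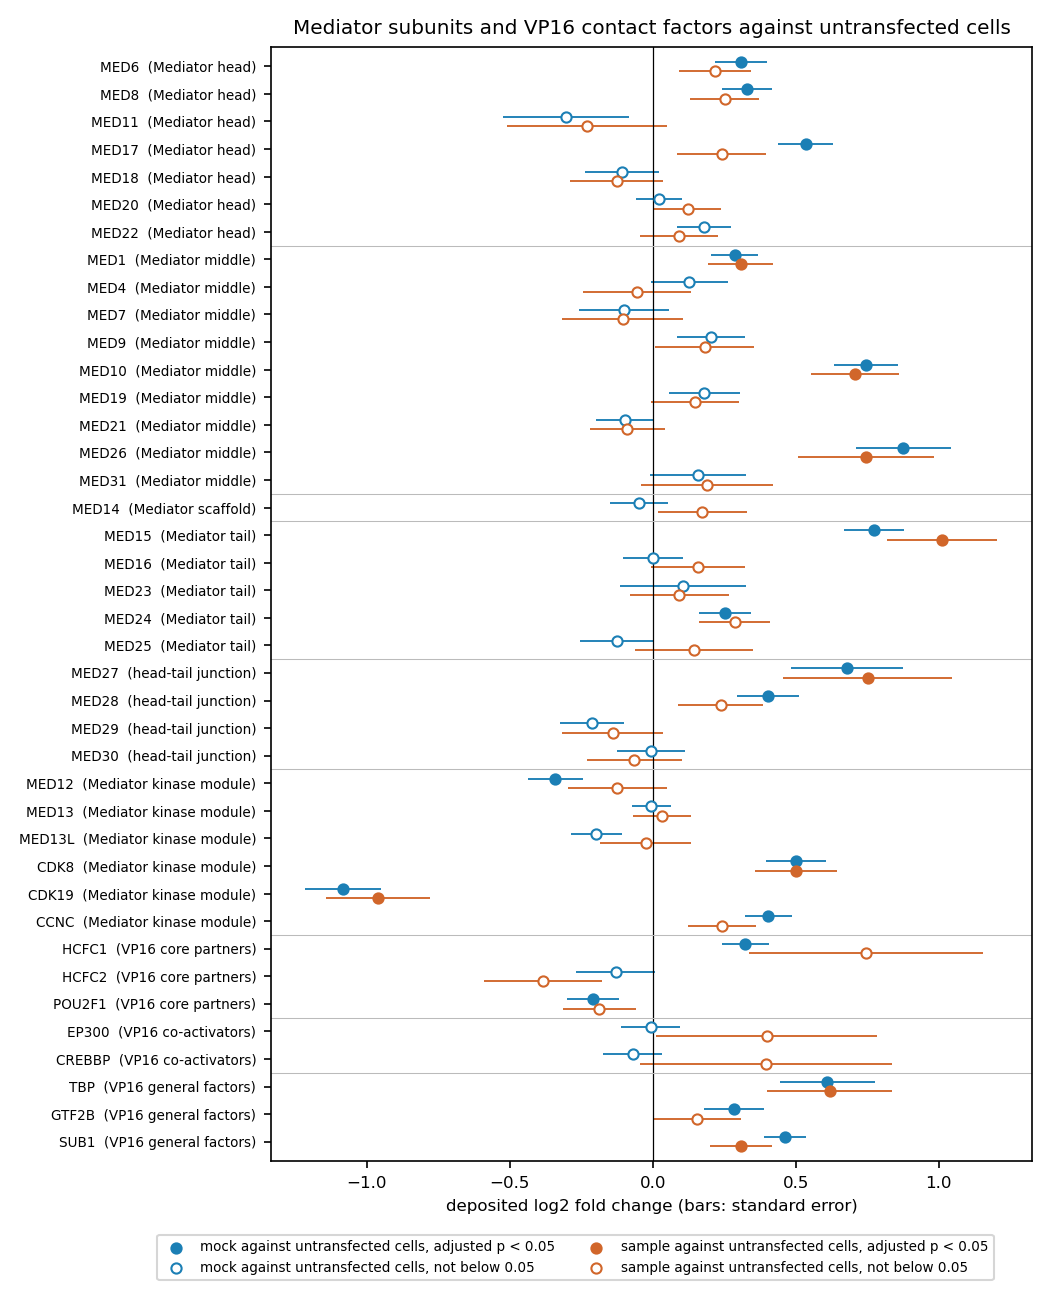
Log2 fold change of each of the 40 genes against untransfected cells in the authors' deposited tables (x axis, bars are standard errors), by module, for mock (blue) and sample cells (orange), with filled points where the adjusted p was under 0.05. CDK19 lies near -1 in both, and MED10, MED26, MED15, MED27, CDK8 and TBP lie at 0.50 or above in both.

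In the head module, which touches the polymerase, 3 of 7 genes rose in mock cells and none fell, with a median log2 fold change of 0.18 in the authors' deposited table (with upper-quartile sizes limma-voom called MED11 lower). Shares over all genes were 27.5% higher and 23.3% lower in mock, and 20.2% and 17.1% in sample cells. MED17, a head subunit that VP16 is described to contact, measured 1048 and 968 normalized counts in the untransfected pair, 1465 and 1429 in the mock pair and 1301 and 1069.9 in the sample pair. Both mock libraries were above both untransfected ones, and sample library b was close to untransfected a. Its log2 fold change was 0.53 (SE 0.10, adjusted p = 1.66e-07) in mock and 0.24 (SE 0.16, adjusted p = 0.225) in sample cells (DESeq2, the authors' deposited tables). The sample value of MED17 in 10 limma-voom refits ran from 0.08 to 0.37, the latter without sample library b. MED6 (log2 fold change 0.31) and MED8 (0.33) also rose in mock cells in the authors' deposited table. MED11, MED18, MED20 and MED22 did not pass, and ran from -0.30 to 0.18 in the authors' deposited table. No head gene passed in sample cells in the authors' deposited table, where values ran from -0.23 to 0.25. There limma-voom over all 6 libraries called MED6 (0.22, adjusted p = 0.0470) and MED8 (0.26, adjusted p = 0.0352). MED6 was called in 2 and MED8 in 6 of 10 refits. In limma-voom refits MED6 lost its mock call without either untransfected library or without mock b (adjusted p up to 0.0642), and MED8 without untransfected a or mock b (adjusted p up to 0.0946).

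In the middle module 3 of 9 genes rose in mock cells and 3 in sample cells, with none lower in the authors' deposited tables (with upper-quartile sizes limma-voom called MED21 lower in mock cells). The median log2 fold change was 0.18 in each in the authors' deposited tables. All genes tested were called higher in 27.5% and lower in 23.3% in mock cells, and in 20.2% and 17.1% in sample cells. MED26 (chr19:16574907-16628204, hg38), a subunit known for recruiting elongation factors, measured 191 and 223 normalized counts in the untransfected pair, 389.8 and 371 in the mock pair and 316 and 417 in the sample pair. The 4 transfected libraries were all above the untransfected pair. The log2 fold change was 0.88 (SE 0.17, adjusted p = 5.57e-07) in mock and 0.75 (SE 0.24, adjusted p = 0.00657) in sample cells (DESeq2, the authors' deposited tables). MED10 (chr5:6371926-6378526, hg38), a small core subunit, measured 580.1 and 568 in the untransfected pair, 935 and 979.7 in the mock pair and 918 and 991 in the sample pair. The groups did not overlap with untransfected cells, and mock and sample ranges overlapped. The deposited log2 fold change was 0.75 (SE 0.11, adjusted p = 1.25e-10) in mock and 0.71 (SE 0.15, adjusted p = 2.68e-05) in sample cells (DESeq2, the authors' deposited tables). MED1, the subunit known for binding nuclear receptors, rose by 0.29 in mock and 0.31 in sample cells in the authors' deposited tables (log2). MED4, MED7, MED9, MED19, MED21 and MED31 did not pass in either comparison, with values from -0.11 to 0.20 in the authors' deposited tables. In limma-voom MED1 lost its mock call with upper-quartile sizes and without untransfected a, untransfected b or mock a (adjusted p up to 0.0965), and its sample call without either untransfected library (adjusted p up to 0.0864). The backbone gene MED14 did not pass either, at -0.05 in mock and 0.17 in sample cells in the authors' deposited tables.

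In the tail, where many activators bind, MED15 and MED24 rose in mock cells and MED15 alone passed in sample cells in the authors' deposited tables. MED15 (chr22:20508048-20587632, hg38), a tail subunit known as a target of sterol-responsive activators, measured 869 and 786 normalized counts in the untransfected pair, 1476 and 1333 in the mock pair and 1371 and 2103 in the sample pair. The transfected libraries were all above the untransfected pair, and sample library b stood apart above the rest. Its log2 fold change was 0.77 (SE 0.10, adjusted p = 1.37e-12) in mock and 1.01 (SE 0.19, adjusted p = 1.33e-06) in sample cells (DESeq2, the authors' deposited tables). MED25, the best described Mediator contact of the VP16 activation domain, measured 566 and 556 in the untransfected pair, 529 and 486 in the mock pair and 516 and 760.1 in the sample pair. Only sample library b was above the untransfected pair. MED25 did not pass, with log2 fold changes of -0.12 (SE 0.13) in mock and 0.14 (SE 0.21) in sample cells in the authors' deposited tables. MED24 had a log2 fold change of 0.25 in mock and 0.29 (adjusted p = 0.0566) in sample cells (DESeq2, the authors' deposited tables). MED16 and MED23 did not pass, with log2 values of at most 0.16 in the authors' deposited tables. In sample cells limma-voom called MED24 in 7 of 10 refits, that of all 6 libraries included (0.28, adjusted p = 0.0166). In limma-voom it lost its mock call with upper-quartile sizes and without untransfected a, untransfected b or mock b (adjusted p up to 0.143).

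At the junction of head and tail MED27 and MED28 rose in mock cells and MED27 in sample cells, while MED29 and MED30 did not pass (limma-voom called MED29 lower in mock cells with upper-quartile sizes or without either sample library). MED27 measured 140.1 and 142 normalized counts in the untransfected pair, 218 and 237 in the mock pair and 189.9 and 330.5 in the sample pair. All 4 transfected libraries were above the untransfected pair, with the sample pair the widest apart. The log2 fold change was 0.68 (SE 0.20, adjusted p = 0.00145) in mock and 0.75 (SE 0.30, adjusted p = 0.0319) in sample cells (DESeq2, the authors' deposited tables). A second, short deposited entry of MED27, with 5 to 35 reads per library, did not pass in either comparison. It had 0.31 (adjusted p = 0.589) in mock and 0.16 (adjusted p = 0.843) in sample cells (DESeq2, the authors' deposited tables). In limma-voom MED27, by its main entry, lost its mock call without either untransfected library or mock b. It lost its sample call with upper-quartile sizes and without any 1 of the untransfected or mock libraries. MED28 lost its call without untransfected b (adjusted p = 0.0505).

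In the kinase module 2 of 6 genes rose and 2 fell in mock cells in the authors' deposited table. Among all genes tested there, 27.5% were called higher and 23.3% lower, so calls in both directions are not particular to the module. MED13L was called lower too by limma-voom with upper-quartile sizes or without either sample library. CDK19 (chr6:110609978-110815316, hg38), 1 of the 2 alternative Mediator kinases, measured 735 and 759 normalized counts in the untransfected pair, 366 and 321 in the mock pair and 399 and 339 in the sample pair. The 4 transfected libraries lay between 321 and 399, and none reached the untransfected pair. The deposited log2 fold change was -1.08 (SE 0.13, adjusted p = 1.38e-15) in mock and -0.96 (SE 0.18, adjusted p = 1.07e-06) in sample cells (DESeq2, the authors' deposited tables). All 3 deposited entries of CDK19 gave -1.08 in mock cells in the authors' deposited table. CDK8 (chr13:26254104-26405238, hg38), its paralog, measured 828 and 804 in the untransfected pair, 1099 and 1192 in the mock pair and 1116 and 1227 in the sample pair. Every transfected library was above the untransfected pair. Its log2 fold change was 0.50 in both comparisons by DESeq2 in the authors' deposited tables (SE 0.10, adjusted p = 5.90e-06 in mock, and SE 0.14, adjusted p = 0.00203 in sample cells).

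CDK8 reads per CDK19 read were 1.13 and 1.06 in the untransfected pair, 3 and 3.71 in the mock pair and 2.80 and 3.62 in the sample pair. The transfected libraries did not overlap with the untransfected pair. Per kilobase of matched transcript, CDK8 averaged 267 normalized counts in untransfected, 375 in mock and 383 in sample cells, and CDK19 averaged 119.6, 55.0 and 59.0. CDK8 was the more abundant of the pair in each group. An exact two-sided permutation test of the ratio gave p = 0.333 for either transfected group against untransfected cells, the smallest that 2 libraries against 2 can give, and the pair was singled out after its values were seen. The paralogs have similar coding sequences, and how reads shared by both were counted is not given in the sources used here.

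**Figure D2:**
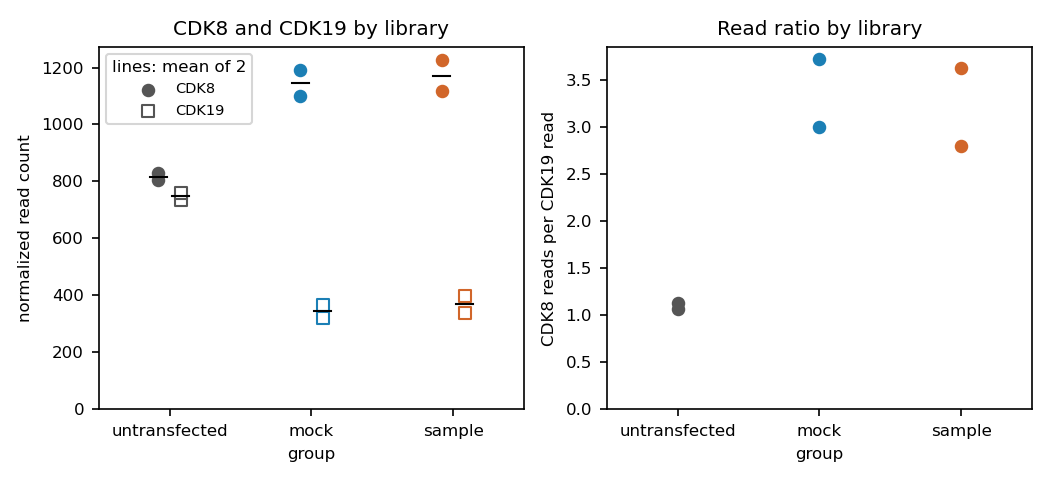
Left, normalized read count of CDK8 (filled circles) and CDK19 (open squares) in each library by group, with lines at the mean of 2. Right, CDK8 reads per CDK19 read: the untransfected libraries lie at 1.13 and 1.06, and the transfected ones between 2.80 and 3.71.

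CCNC, the cyclin partner of both kinases, measured 2525 and 2604 normalized counts in the untransfected pair, 3191 and 3528 in the mock pair and 3204 and 2859 in the sample pair. It was higher in all 4 transfected libraries, with log2 fold changes of 0.40 (SE 0.08, adjusted p = 3.47e-06) in mock and 0.24 (SE 0.12, adjusted p = 0.0938) in sample cells (DESeq2, the authors' deposited tables). In sample cells limma-voom called CCNC in 6 of 10 refits, that of all 6 libraries included (0.25, adjusted p = 0.0373). MED12, which activates the kinase, measured 1414 and 1424 in the untransfected pair, 1144 and 1063 in the mock pair and 1094 and 1545 in the sample pair. The mock pair lay below the untransfected pair, and the sample pair lay on both sides of it. MED12 fell by 0.34 on the log2 scale in mock cells (SE 0.10, adjusted p = 0.000997) and did not pass in sample cells (-0.12, adjusted p = 0.623), both from DESeq2 in the authors' deposited tables. Its sample value in 10 limma-voom refits ran from -0.37, without sample library b, to 0.11, so it depends on that library. In limma-voom the mock call was lost without any 1 of the untransfected or mock libraries (adjusted p up to 0.118).

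MED13, which tethers the kinase module to the core complex, measured 8509 and 8949.6 in the untransfected pair, 8776 and 8402 in the mock pair and 8579 and 9348 in the sample pair. Its paralog MED13L stood at 2184 and 2349, 2057 and 1842, and 1901 and 2598 in the same order. The ranges of MED13 overlapped between all groups, and the mock libraries of MED13L lay below its untransfected pair. Neither passed, with log2 fold changes of -0.01 for MED13 and -0.20 (adjusted p = 0.0543) for MED13L in mock cells (DESeq2, the authors' deposited table). The 6 genes together summed to 16195 and 16888 normalized counts in the untransfected pair, 16633 and 16348 in the mock pair and 16293 and 17915 in the sample pair, where MED13 holds most of the sum.

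**Figure D3:**
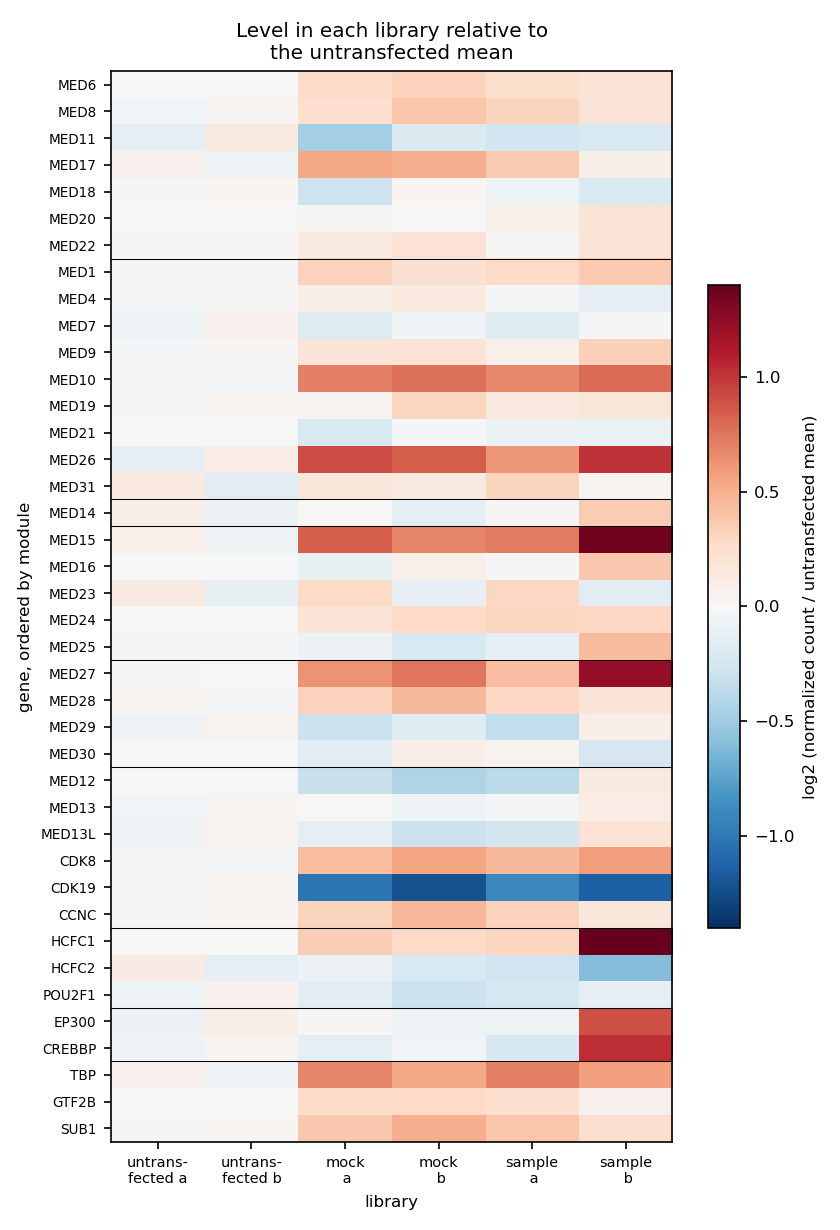
Level of each of the 40 genes in the 6 libraries as log2 of the normalized read count over the mean of the 2 untransfected libraries, with lines between modules. CDK19 is the deepest blue row in all 4 transfected libraries, and HCFC1, EP300 and CREBBP are dark red in sample library b alone.

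Of the core-region partners, HCFC1 rose and POU2F1 fell in mock cells, and none of the 3 passed in sample cells in the authors' deposited tables. HCFC1 (chrX:153947557-153971368, hg38), the host cell factor that VP16 binds, measured 1776 and 1777 normalized counts in the untransfected pair, 2259 and 2139.8 in the mock pair and 2184 and 4676 in the sample pair. Sample library a lay with the mock pair and sample library b at more than double that level, as the ratio of b to a of 1.10 on the log2 scale shows. The log2 fold change was 0.32 (SE 0.08, adjusted p = 0.000311) in mock and 0.75 (SE 0.41, adjusted p = 0.147) in sample cells (DESeq2, the authors' deposited tables). In sample cells limma-voom over all 6 libraries called HCFC1 (0.67, adjusted p = 0.0468). It was called in 4 of 10 refits, and not with upper-quartile sizes or with the entries of a gene summed. The log2 fold change was 1.38 without sample library a and 0.30 without sample library b. The mock call did not pass with limma-voom over all 6 libraries (0.29, adjusted p = 0.307), and was lost in 8 of 10 refits with limma-voom (adjusted p up to 0.540).

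POU2F1, the octamer-binding partner, measured 1886 and 2055 in the untransfected pair, 1762 and 1600.2 in the mock pair and 1657 and 1818 in the sample pair. Both transfected groups lay below the untransfected pair. The log2 fold change was -0.21 (SE 0.09, adjusted p = 0.0460) in mock and -0.19 (SE 0.13, adjusted p = 0.258) in sample cells (DESeq2, the authors' deposited tables). In limma-voom its mock call was lost without either untransfected library or mock b (adjusted p up to 0.229). HCFC2, a paralog of HCFC1, measured 581 and 488 in the untransfected pair, 504 and 459.6 in the mock pair and 444 and 351 in the sample pair. The sample pair was the lowest, and HCFC2 did not pass, with -0.13 (adjusted p = 0.462) in mock and -0.38 (adjusted p = 0.137) in sample cells (DESeq2, the authors' deposited tables).

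The acetyltransferase genes did not pass in any comparison. EP300 measured 1087 and 1219 normalized counts in the untransfected pair, 1168 and 1097 in the mock pair and 1096 and 2148 in the sample pair. CREBBP stood at 1039 and 1104, 975 and 1042, and 917 and 2202 in the same order. In both, sample library b was well above every other library, and sample library a was not above the untransfected pair. The log2 fold changes were -0.01 and -0.07 in mock cells and 0.40 (SE 0.39) and 0.40 (SE 0.44) in sample cells for EP300 and CREBBP in the authors' deposited tables.

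All 3 general factors rose in mock cells, where 27.5% of all genes were called higher. TBP and SUB1 also passed in sample cells, where 20.2% of all genes were called higher. TBP, which binds the TATA element, measured 237 and 218 normalized counts in the untransfected pair, 365 and 328 in the mock pair and 371 and 339 in the sample pair. SUB1, the single-strand DNA-binding co-activator PC4, stood at 5925 and 6148, 7866 and 8601, and 7893 and 7084 in the same order. GTF2B, which bridges TBP and the polymerase, stood at 814 and 804, 965 and 985, and 951 and 843. For each of the 3 genes all 4 transfected libraries were above the untransfected pair. Of all genes with a mean of at least 10, 42.3% had both mock libraries and 37.6% both sample libraries above that pair. In mock cells the log2 fold changes were 0.61 (TBP, adjusted p = 0.000638), 0.46 (SUB1, adjusted p = 1.29e-09) and 0.28 (GTF2B, adjusted p = 0.0144) (DESeq2, the authors' deposited table). In sample cells they were 0.62 (TBP, adjusted p = 0.0153), 0.31 (SUB1, adjusted p = 0.0130) and 0.16 (GTF2B, adjusted p = 0.460) (DESeq2, the authors' deposited table). In limma-voom GTF2B lost its call with upper-quartile sizes and without any 1 of the untransfected or mock libraries (adjusted p up to 0.134). The sample call of TBP was lost without sample a (adjusted p = 0.0510), and that of SUB1 without untransfected a or sample a (adjusted p up to 0.0792). The 3 genes together summed to 6976 and 7171 normalized counts in the untransfected pair, 9196 and 9915 in the mock pair and 9216 and 8266 in the sample pair.

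The direct comparison of sample with mock cells addressed what the light-controlled plasmids add to transfection. None of the 40 members passed in either direction in the authors' deposited table, where 0.0785% of 15287 genes were called. No member had an unadjusted p under 0.05 there, against 299 of all genes. In limma-voom, where 0.0134% of 14896 genes were called, no member passed after adjustment (smallest adjusted p = 0.960). Only 1 member, MED17, had an unadjusted p under 0.05 in limma-voom, with a log2 fold change of -0.23, against 646 of all 14896 genes. Deposited log2 fold changes of the members ran from -0.19 to 0.19 with a median of 0.02 in the authors' deposited table, which shrinks values of this comparison strongly toward 0. The unshrunk limma-voom values had 95% intervals with a half-width of 0.17 to 0.62 and a median of 0.27. For all 40 members the interval lay within 1 log2 unit of 0 on either side, and for 31 within 0.5. The widest was that of CREBBP, 0.24 with an interval from -0.38 to 0.85, and HCFC1 had 0.38 with an interval from -0.18 to 0.94. For CDK8 the interval ran from -0.20 to 0.22 and for CDK19 from -0.14 to 0.46. These intervals come from the fit to all 6 libraries, and of the 40 only that of MED17 (-0.46 to -0.0030) leaves out 0. That fit uses 1 spread per gene for all groups, so an interval can be too narrow where the sample libraries lie far apart. Over 10 limma-voom refits the log2 fold change ran from -0.01 to 1.09 for HCFC1 and from -0.13 to 1.13 for CREBBP. For EP300 it ran from -0.05 to 0.92. The highest value of each came without sample library a, so the intervals are not bounds for each sample library.

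The sample pair limits these statements. Over the 40 members the SD of log2 (b over a) was 0.40 in the sample pair, 0.12 in the untransfected pair and 0.15 in the mock pair. Over all genes with a mean of at least 10 it was 0.54, 0.26 and 0.33. In the sample pair 6 members differed by at least 0.5 on the log2 scale, all higher in library b: CREBBP (1.26), HCFC1 (1.10), EP300 (0.97), MED27 (0.80), MED15 (0.62) and MED25 (0.56). In the other pairs no member did. Of all genes with a mean of at least 10, 3055 of 14760 differed by that much in the sample pair, in either direction. The counts were 847 of 14885 in the untransfected pair and 1259 of 14877 in the mock pair. Across 39 members with a matched transcript, the difference went with GC content (Spearman rho 0.61), against 0.26 across 14163 genes. The same rho was 0.17 in the untransfected and 0.12 in the mock pair. With transcript length, rho over the members was 0.29 in the sample, 0.03 in the untransfected and -0.56 in the mock pair. Over all genes it was 0.07, -0.06 and -0.27 in that order. Each correlation is across genes of 1 pair of libraries and describes that pair only. The part of GC content, transcript length, depth or the cells in the difference between the sample libraries was not tested.

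**Figure D4:**
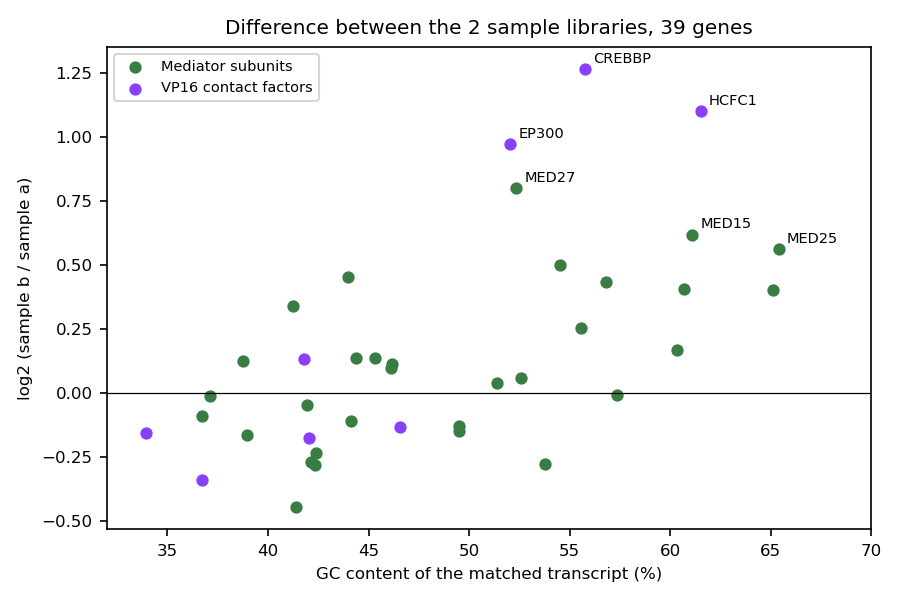
Difference between the 2 sample libraries (y axis, log2 of b over a) against GC content of the matched transcript (x axis, %) for 39 of the 40 genes. The 6 labelled genes differ by at least 0.5, and CREBBP at 1.26 is the highest.

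Without sample library a, when library b alone stands for the group, limma-voom called 6 members higher in sample than in mock cells: MED15, MED25, MED12, HCFC1, EP300 and CREBBP. In that fit 4.79% of all genes were called higher and 0.868% lower. Their adjusted p-values ran from 2.33e-05 (HCFC1) to 0.0436 (MED25) in that limma-voom fit, which assumes that the lone library varies like the others. Without sample library b no member was called, against 0.0195% of all genes higher and 0.0261% lower. Against untransfected cells limma-voom called 12 members higher and 1 lower without sample library a, MED14, MED16, MED25, EP300 and CREBBP among them, where 23.9% of all genes were higher and 18.6% lower. Without sample library b it called 16 higher and 5 lower, where 28.2% of all genes were higher and 25.6% lower. EP300 and CREBBP were called against untransfected cells only in the refit without sample library a, and had values of -0.06 and -0.22 without sample library b.

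Genes of the wider transcription machinery were read from lists chosen by name, beside the 27.5% higher and 23.3% lower of all genes in mock cells. Of 15 TFIID subunits outside TBP, 8 were higher and 1 lower in mock cells, and the other general factors 13 higher and 1 lower of 16. RNA polymerase II had 8 higher and 0 lower of 12, elongation factors 9 and 1 of 15, SAGA 3 and 4 of 16, SWI/SNF 3 and 6 of 15, and HCFC1 partners 6 and 2 of 16, at the same threshold in the authors' deposited table. In sample cells the counts in that order were 2 and 1, 10 and 0, 3 and 1, 5 and 0, 2 and 2 of 15, 2 and 5, and 4 and 1. Of all genes tested in sample cells, 20.2% were called higher and 17.1% lower. The median log2 fold changes in mock cells were 0.26 for TFIID, 0.46 for the other general factors, 0.24 for the polymerase, 0.36 for elongation factors, -0.13 for SAGA, -0.06 for SWI/SNF and 0.16 for HCFC1 partners in the authors' deposited table. No gene of these lists was called in sample against mock cells. The core Mediator without the kinase module had 10 higher and 0 lower of 26 in mock and 5 and 0 in sample cells. The difference between lists was not tested.

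The TFIID genes TAF4B and TAF13 had log2 fold changes of 1.98 and 1.16 in mock and 1.87 and 0.88 in sample cells in the authors' deposited tables. GTF2F2 of TFIIF and the cyclin CCNH of TFIIH stood at 0.96 and 0.94 in mock cells, and the polymerase subunit genes POLR2C and POLR2D at 0.69 and 0.61, in the authors' deposited table. ELL2, an elongation factor of the complex that MED26 recruits, stood at 1.17, and SUPT5H at 0.71, in the authors' deposited table. The acetyltransferase paralogs of SAGA went opposite ways, with 0.64 for KAT2A and -0.85 for KAT2B, and the remodelling genes SMARCA2 and SMARCD3 fell (-0.83 and -0.64), in the authors' deposited table. The methyltransferase genes KMT2B and SETD1A, whose complexes contain HCF-1, rose (0.64 and 0.62) in the authors' deposited table. Like HCFC1, these last were higher in sample library b than in a, with 917 normalized counts against 538 for KMT2B and 401 against 175 for SETD1A.

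**Figure D5:**
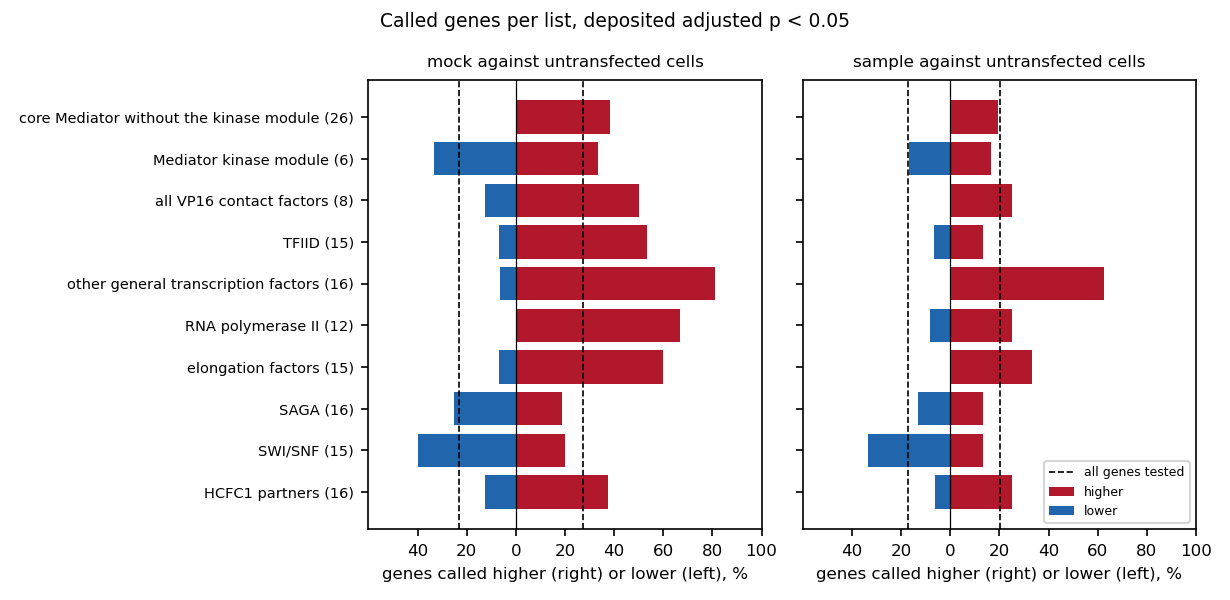
Share of genes of each list called higher (right, red) or lower (left, blue) at an adjusted p under 0.05 in the authors' deposited tables, for mock (left panel) and sample cells (right panel) against untransfected cells, with list sizes in parentheses and dashed lines at the share of all genes tested. The kinase module has 2 genes on each side in mock cells, while core Mediator has genes on the higher side only, though with upper-quartile sizes limma-voom called MED11, MED21 and MED29 lower in mock cells.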

How the data were processed

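RNA of 6 libraries was sequenced with directional kits, per the labels' protocols. The submitters' processing notes name hg38, Bowtie, STAR and DESeq2, and no version, annotation or counting method is given there. The authors deposited 3 tables, each a fit to the 4 libraries of 2 groups. Per the file headers these hold a mean signal of normalized read counts, a log2 fold change with its standard error, a Wald score, and a p-value with its adjusted p-value, for 40029 entries. The deposited log2 fold changes are shrunk toward 0.

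Whole counts of the 6 libraries were recovered from the deposited means for 30527 of 30527 entries with reads, within a relative tolerance of 1e-14, and for 3924 of 3924 simulated entries. Symbols were matched for 39722 entries (99.2%), through RefSeq and then GENCODE 29, which hold 99.93% of reads. The primary-chromosome entry with the most reads stood for a gene. Isoform entries can share reads. The deposited test at an adjusted p under 0.05 is the main result. limma-voom (limma 3.58.1, R 4.3.3) on recovered counts of genes with a mean of at least 10, sized by median of ratios and adjusted by Benjamini-Hochberg, was the alternative, tested on simulated data. edgeR was planned only for deposited raw counts and was not run. Python 3.11.15 was used.

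The members and lists were chosen with earlier results of these data known. Values in every library are given for the 6 called members with the largest rise and up to 6 with the largest fall in mock cells, the kinase module, MED25, MED15 and MED17, and the 8 contact factors. Of other lists up to 2 called genes with the largest change and a mean of at least 50 are named. Promoters come from RefSeq.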

Additional observations from a re-analysis of the deposited data

How the results depend on the processing

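In mock cells, 16 members were higher and 3 lower in the authors' deposited table. Leaving out 1 library at a time changed which members limma-voom called. With upper-quartile sizes 7 were lower and the median log2 fold change was 0.034. In sample against untransfected cells (8 higher, 1 lower), the deposited count fell to 4 higher at an adjusted p under 0.01, and limma-voom gave 13 higher. Upper-quartile sizes gave 3 lower, and leaving out 1 library gave 5 to 16 higher and 1 to 5 lower. In sample against mock cells, leaving out 1 library gave 0 to 6 higher. The share of all genes called moved with the scaling too. In mock cells limma-voom called 29.7% higher and 29.2% lower, against 25.2% and 33.6% with upper-quartile sizes. In sample against untransfected cells it called 25.6% and 25.0%, against 22.0% and 28.6%. Counts with 1 library left out are not given here, because such a fit leaves a group with 1 library. A change in the members was therefore not separated from a change in calls over all genes. The cause was not tested.

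The deposited calls kept in all 10 refits with limma-voom were, in mock cells, 9 of 19: MED17, MED10, MED26, MED15, CDK8, CCNC, TBP and SUB1 as higher and CDK19 as lower. In sample against untransfected cells they were 5 of 9: MED10, MED26, MED15 and CDK8 as higher and CDK19 as lower. The 28 deposited calls gave 280 values under these refits, of which 233 kept the call, 47 lost it and 0 reversed. Members without a deposited call gave 920 values, of which 54 gained one. Upper-quartile sizes were used as the other scaling. No paired analysis was possible because the libraries recovered from the means carry no replicate numbers. With 2 libraries a group and 1 sample library with a summed count of only 9579278, calls that rest on a single library cannot be separated from its own spread.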

Other observations

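Per kilobase of matched transcript, levels of 39 members (1 had no matched length) covered a wide range, which depends on the transcript matched. In untransfected cells MED8 (1730.1 normalized counts per kilobase), SUB1 (1721) and MED30 (1679) were the highest group means and MED26 (65.2), MED28 (72.5) and HCFC2 (93.2) the lowest. In mock cells MED26 averaged 119.9 per kilobase and CDK19, at 55.0, was the lowest of the 39. In sample cells CDK19 averaged 59.0 and HCFC2 69.4.

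Read ratios of the other paralog pairs are given as values. MED13 reads per MED13L read were 3.90 and 3.81 in the untransfected, 4.27 and 4.56 in the mock and 4.51 and 3.60 in the sample pair. EP300 reads per CREBBP read were 1.05 and 1.10, 1.20 and 1.05, and 1.20 and 0.976 in the same order, so both genes were high together in sample library b. HCFC1 reads per HCFC2 read were 3.06 and 3.64, 4.48 and 4.66, and 4.92 and 13.3. No difference between pairs was tested.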
